A study of Homo sapiens with 6 samples.

Results

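The genes of the Wnt and β-catenin pathway were examined in SW480 cells, an established human colon adenocarcinoma line that carries a mutant APC gene. The 40 genes were taken from a list of pathway members and targets, out of 56303 gene symbols in the count table, and all 40 had a row there. Messenger RNA was sequenced from cells infected with lentivirus carrying a nonsilencing hairpin (shCtrl, genotype labelled WT) and from cells infected with lentivirus carrying a hairpin against RBM39 (shRBM39, genotype labelled RBM39 knockdown), with 3 libraries per group. RBM39 is an RNA-binding splicing factor. Both groups came from stable lines selected with puromycin and described as clonal, so any difference between the derived lines cannot be told apart from the knockdown, and the study describes the 3 libraries of a group as independent replicate experiments. The labels do not name separate cultures, and p-values measure the spread between these libraries. The 6 libraries held 18042924 to 20428901 counts. RBM39 itself had 435 to 448 CPM (counts scaled to a common library size and composition) in shCtrl and 266 to 292 CPM in shRBM39.

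In the Wnt pathway, a secreted, lipid-modified Wnt ligand binds a Frizzled receptor and an LRP5 or LRP6 co-receptor, and Dishevelled proteins relay the signal to the destruction complex. That complex, built on APC and Axin with the kinase GSK3B, otherwise marks β-catenin for degradation. Stable β-catenin enters the nucleus, joins TCF/LEF factors on DNA and switches on targets, several of which, such as AXIN2, RNF43, ZNRF3, NKD1 and NOTUM, act back on the pathway as brakes. In the intestine the pathway keeps crypt stem cells dividing, and truncation of APC, common in colorectal cancer, leaves it active without ligand.

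Markers were read to check the label. Of 10 colon epithelial markers, 7 had at least 10 counts in every library, with a summed level of 2679 to 2831 RPKM (reads per kilobase of exon, scaled to library size) in shCtrl and 2984 to 3084 RPKM in shRBM39. Of the 8 that were tested, 3 were higher in shRBM39 and 3 lower, where 29.2% of all tested genes were higher and 29.9% lower. The keratin genes KRT8, KRT18 and KRT20 had log2 fold changes of 0.43, 0.24 and 1.82 (edgeR adjusted p 2.92e-12, 1.19e-06 and 8.41e-05), with 11, 5 and 3 counts of KRT20 in shCtrl and 18, 25 and 19 in shRBM39. KRT20 passed the filter on low counts through its shRBM39 libraries. CDX2, an intestinal transcription factor, CDH1 and VIL1 had log2 fold changes of -2.13, -0.39 and -0.09 (edgeR adjusted p 2.44e-20, 1.03e-09 and 0.0298). CEACAM5 and LGALS4 had at most 6 and 8 counts in any library. The summed levels of the other marker lists were 2.31 to 2.69 RPKM in shCtrl and 2.51 to 2.81 RPKM in shRBM39 for 6 fibroblast genes, 7.33 to 7.70 RPKM and 7.07 to 7.63 RPKM for 5 leukocyte genes, and 0.440 to 0.597 RPKM and 0.761 to 0.930 RPKM for 3 endothelial genes. At least 10 counts in every library were found for 3 of the fibroblast genes, 1 of the leukocyte genes and 2 of the endothelial genes. COL1A1, PECAM1 and VWF were higher, with log2 fold changes of 0.81, 0.79 and 1.39 (edgeR adjusted p 8.04e-08, 7.49e-06 and 7.64e-05). CD68, LUM and PDGFRB were not called. PTPRC had 0 counts throughout, and DCN and CDH5 had at most 1 count in a library. Whether the rise of the endothelial list or of COL1A1 bears on the results was not tested.

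Across all genes, edgeR's quasi-likelihood test called 59.1% of 18243 genes at an adjusted p below 0.05, 29.2% higher and 29.9% lower in shRBM39. Of the 40 Wnt pathway genes, 36 passed the filter on low counts and 25 of these (69.4%) were called, 7 higher (19.4%) and 18 lower (50%). The median log2 fold change was -0.13 over the 36 genes and -0.01 over all tested genes. Values of the groups did not overlap in 27 of the 36 genes (75%), against 63.3% of all tested genes. A change of at least 2-fold, a log2 fold change of 1 or more in size, was seen in 2 of the 36 genes (5.56%), against 6.52% of all tested genes. The 2 were SFRP5 and DKK1, and DKK1 passed the filter through its shRBM39 libraries, where it was higher. The 4 genes that were not tested were SFRP1, WIF1, FZD7 and FZD8. In bulk libraries, fewer cells with a transcript and less of the transcript per cell cannot be told apart.

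**Figure D1:**
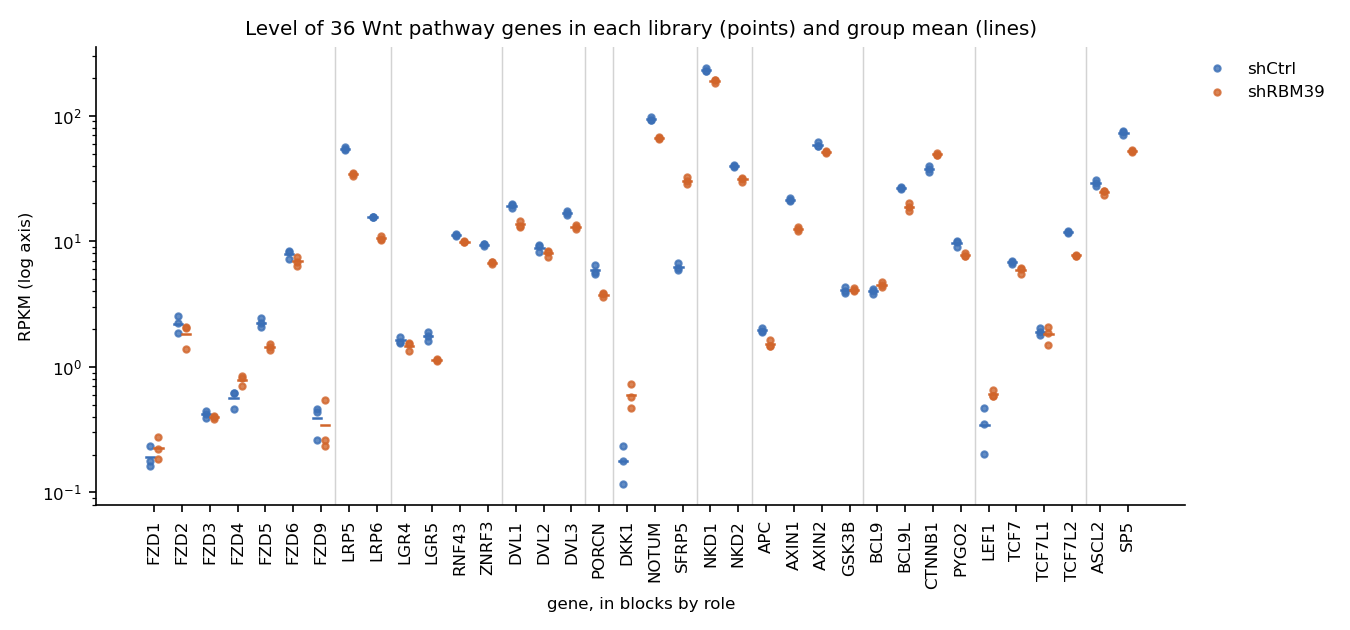
RPKM of the 36 tested genes (log axis) in each of 3 shCtrl and 3 shRBM39 libraries, with points for libraries and short lines for group means, in blocks by role. NKD1 stood highest in both groups, at 233 and 189 RPKM, and SFRP5 rose from 6.24 to 30.5 RPKM.

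The receptors were considered first. Frizzled proteins are the Wnt receptors at the cell surface. The Frizzled genes were expressed at low levels, with FZD6 in front at 7.91 ± 0.612 RPKM in shCtrl and 6.91 ± 0.56 RPKM in shRBM39 (SD, n = 3). Among the listed Frizzled genes, FZD5 and FZD2 followed in shCtrl at 2.25 ± 0.175 and 2.21 ± 0.343 RPKM (SD, n = 3), which did not differ beyond their spread. FZD4, FZD3 and FZD9 stood at 0.565, 0.419 and 0.389 RPKM, and FZD1 at 0.191 RPKM. FZD7 had 4 to 13 counts and FZD8 0 to 6 counts in a library, where 3 counts correspond to 0.147 to 0.166 CPM.

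Of the 7 Frizzled genes tested, 1 was higher and 1 lower, so that 28.6% were called, against 59.1% of all tested genes. Some had few counts, with 22 to 35 for FZD1 and 11 to 26 for FZD9 in a library. FZD5, a Frizzled of the intestinal crypt, had 13.5, 15.5 and 14.3 CPM in shCtrl and 9.6, 10.7 and 10.0 CPM in shRBM39. All shRBM39 libraries lay below all shCtrl libraries, and FZD5 fell by 0.52 on the log2 scale (standard error, SE, 0.08; edgeR adjusted p 2.18e-06). FZD4, which also serves as receptor for the ligand norrin, had 3.28, 4.38 and 4.33 CPM in shCtrl and 6.48, 5.46 and 6.30 CPM in shRBM39. Every shRBM39 library was above every shCtrl library, with a log2 fold change of 0.61 (SE 0.13, edgeR adjusted p 0.000167). FZD4 shares 18.9% of its exon bases with PRSS23 on the opposite strand, which was also higher, by 0.34 (edgeR adjusted p 0.00217). The library kit was stranded, but whether counting used the strand is not given in the sources used here, so reads of such pairs are uncertain. The most abundant receptor gene, FZD6, had a log2 fold change of -0.07 with a 95% interval of -0.20 to 0.06, and was not called, but with library totals it was called as lower (-0.20). The other intervals were -0.44 to 0.17 for FZD2, -0.19 to 0.28 for FZD3, -0.12 to 0.83 for FZD1 and -0.69 to 0.62 for FZD9. The sum of the 9 Frizzled genes was 12.6, 15 and 14.6 RPKM in shCtrl and 12.0, 11.6 and 12.8 RPKM in shRBM39. These sums, which leave out FZD10, overlapped between the groups. Within this sum FZD5 went from 16.0% ± 0.641 to 11.9% ± 1.03 and FZD4 from 4% ± 0.315 to 6.5% ± 0.493 (SD, n = 3).

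LRP5 and LRP6, the co-receptors that bring Axin to the membrane, both fell. LRP5 (chromosome 11, 68312609 to 68449275, GRCh38) had 320, 330 and 318 CPM in shCtrl and 225, 224 and 214 CPM in shRBM39. The groups were far apart, with a log2 fold change of -0.55 (SE 0.04, edgeR adjusted p 8.98e-15). LRP6 (chromosome 12, 12116025 to 12267012) had 157, 154 and 153 CPM against 119, 114 and 111 CPM, a log2 fold change of -0.43 (SE 0.04, edgeR adjusted p 1.41e-11). Their summed level went from 70.1 ± 1.38 to 44.9 ± 1.33 RPKM (SD, n = 3), and LRP5 made up 77.8% of the sum in shCtrl and 76.4% in shRBM39. The LRP5 share was 77.4% to 78.2% in the shCtrl libraries and 76.0% to 76.7% in the shRBM39 libraries. LRP5 thus fell slightly more than LRP6.

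LGR4 and LGR5 bind R-spondins, which hold off RNF43 and ZNRF3, the ubiquitin ligases that clear Frizzled from the surface. LGR5, the best-known marker of crypt stem cells, had 8.24, 9.47 and 8.76 CPM in shCtrl and 6.33, 6.16 and 6.20 CPM in shRBM39. It was lower in each shRBM39 library, by a log2 fold change of -0.50 (SE 0.10, edgeR adjusted p 7.97e-05). ZNRF3 had 61.8, 63.6 and 63.1 CPM against 49.8, 49.7 and 47.9 CPM, a log2 fold change of -0.36 (SE 0.04, edgeR adjusted p 2.05e-08). RNF43 had 79.7, 81.4 and 81.3 CPM against 78.5, 77.5 and 77.9 CPM. The RNF43 groups did not overlap, but its log2 fold change of -0.05 (95% interval -0.14 to 0.03) was not called. With library totals RNF43 was called as lower, at -0.18 (edgeR adjusted p 0.000463), as it was on both log2 RPKM scales, at -0.16 and -0.17. LGR4 was not called either, at -0.02 (95% interval -0.21 to 0.17). RNF43 shares 20.3% of its exon bases with TSPOAP1-AS1 on the opposite strand.

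Dishevelled proteins carry the signal inward from the receptors. DVL1 had 73.7, 70.1 and 66.9 CPM in shCtrl and 58.2, 53.3 and 51.7 CPM in shRBM39, a log2 fold change of -0.37 (SE 0.05, edgeR adjusted p 5.62e-08). DVL3 had 98.9, 101 and 94.2 CPM against 81.8, 86.0 and 79.4 CPM, a log2 fold change of -0.25 (SE 0.04, edgeR adjusted p 6e-06). Both genes were lower without overlap. DVL2 had 42.5, 46.5 and 47.8 CPM against 46.0, 47.1 and 42.2 CPM, which overlapped, and its log2 fold change was -0.02 (95% interval -0.12 to 0.09), though it was called as lower with library totals (-0.14). By RPKM, DVL1 was the highest of the 3 in shCtrl (19.2 ± 0.795, SD, n = 3), ahead of DVL3 (16.8 ± 0.604) and DVL2 (8.89 ± 0.613). In shRBM39, DVL1 at 13.6 ± 0.874 RPKM and DVL3 at 12.9 ± 0.497 RPKM (SD, n = 3) were within their spread of each other. PORCN, the acyltransferase that attaches the lipid to Wnt ligands, had 19.1, 16.3 and 15.9 CPM against 11.2, 12.1 and 11.9 CPM, a log2 fold change of -0.54 (SE 0.08, edgeR adjusted p 7.04e-07).

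**Figure D2:**
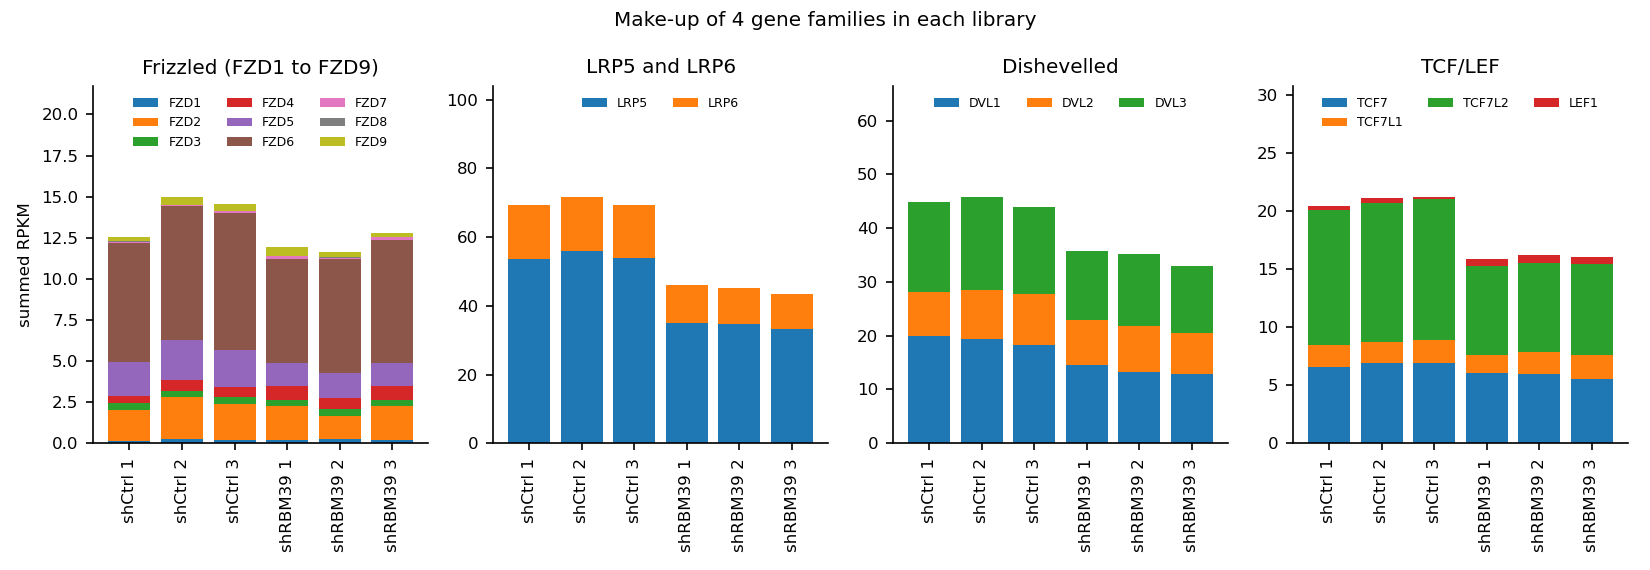
Summed RPKM (bars from 0, colours for genes) of the Frizzled, LRP, Dishevelled and TCF/LEF genes in each of the 6 libraries. The Frizzled sums, which cover FZD1 to FZD9 and leave out FZD10, overlapped between the groups. The LRP, Dishevelled and TCF/LEF sums were lower in every shRBM39 library, as was the Frizzled sum with FZD10 added.

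Among the antagonists, the secreted ones moved in opposite directions. SFRP5 (chromosome 10, 97766751 to 97771952) encodes a secreted Frizzled-related protein that binds Wnt ligands. SFRP5 had 10.9, 11.8 and 10.3 CPM in shCtrl and 61.8, 55.4 and 58.3 CPM in shRBM39, and was the most increased of the 36 genes. The groups were far apart, by 5.32-fold, or 2.41 on the log2 scale (SE 0.06, edgeR adjusted p 9.51e-26). DKK1, a secreted ligand that removes LRP5 and LRP6 from the surface, had 5, 8 and 10 counts in shCtrl and 33, 23 and 21 counts in shRBM39. These few counts gave 0.372 ± 0.122 CPM and 1.37 ± 0.301 CPM (SD, n = 3) and a log2 fold change of 1.86 (95% interval 1.2 to 2.52, edgeR adjusted p 7.18e-06). NOTUM (chromosome 17, 81952507 to 81961840), a secreted deacylase that strips the lipid from Wnt, fell. Its levels were 273, 282 and 269 CPM in shCtrl and 212, 210 and 206 CPM in shRBM39, a log2 fold change of -0.39 (SE 0.04, edgeR adjusted p 2.91e-11). In shCtrl, NOTUM at 94.9 ± 2.74 RPKM stood well above SFRP5 at 6.24 ± 0.465 RPKM and DKK1 at 0.176 ± 0.0587 RPKM (SD, n = 3), and NOTUM remained the highest of the 3 in shRBM39 at 66.4 ± 0.949 RPKM. SFRP1, often silenced in colorectal cancer, had 0 counts in all 6 libraries, which allows up to 0.147 to 0.166 CPM per library for counting error alone. WIF1, a secreted Wnt-binding protein, had 1 count in 1 library.

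NKD1 and NKD2 encode Naked cuticle proteins, which bind Dishevelled inside the cell. NKD1 (chromosome 16, 50548330 to 50649249) took 0.406% of all counts in shCtrl and 0.329% in shRBM39. At 233 ± 6.97 RPKM (SD, n = 3) it ranked 197 among all genes of the table in shCtrl. NKD1 had 3872, 3999 and 3805 CPM in shCtrl and 3491, 3492 and 3337 CPM in shRBM39, a log2 fold change of -0.18 (SE 0.04, edgeR adjusted p 7.9e-05). The call of NKD1 was lost when library-specific trends with GC content and gene length were removed, a GC and length correction that brought its log2 fold change to 0.00763 (edgeR adjusted p 0.856). NKD1 has the longest gene model of the 40 genes, 17425 bases of exon. NKD2 had 111, 112 and 109 CPM against 96.4, 95.5 and 89.7 CPM, a log2 fold change of -0.23 (SE 0.04, edgeR adjusted p 8.93e-06), which was -0.24 with the same correction.

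In the destruction complex, Axin genes differed from each other. AXIN1 (chromosome 16, 287440 to 352673), the constitutive scaffold, had 155, 156 and 149 CPM in shCtrl and 97.7, 102 and 94.7 CPM in shRBM39. It fell, with a log2 fold change of -0.64 (SE 0.04, edgeR adjusted p 1.22e-15), and was the most decreased of the 36 genes. AXIN2, the scaffold induced by β-catenin itself, had 290, 306 and 287 CPM against 287, 282 and 275 CPM, with overlap, and a log2 fold change of -0.06 (95% interval -0.14 to 0.01, edgeR adjusted p 0.145). AXIN2 was called as lower under other scalings, at -0.10 with upper quartiles and -0.19 with library totals. It shares 25.2% of its exon bases with CTD-2535L24.2 on the same strand, so some of its reads are uncertain. By RPKM, AXIN2 was above AXIN1 in both groups, at 58.7 ± 2.33 against 21.4 ± 0.586 in shCtrl and 51.6 ± 1.16 against 12.6 ± 0.459 in shRBM39 (SD, n = 3).

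APC, the scaffold that is mutant in this line, had 23.3, 24.3 and 22.5 CPM in shCtrl and 21.3, 18.9 and 19.1 CPM in shRBM39, a log2 fold change of -0.24 (SE 0.07, edgeR adjusted p 0.00231). With the GC and length correction its log2 fold change was -0.12 (edgeR adjusted p 0.11). Counts per gene do not show which allele or truncated product they come from. GSK3B, the kinase, had 29.9, 30.4 and 33.2 CPM against 35.2, 33.9 and 34.2 CPM, a log2 fold change of 0.15 (SE 0.06, edgeR adjusted p 0.0236). GSK3B was not called in 10 of 17 alternatives, among them the fits without shCtrl replicate 1 (0.12), without shCtrl replicate 2 (0.13) and without shRBM39 replicate 1 (0.13).

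CTNNB1 (chromosome 3, 41194837 to 41260096), which encodes β-catenin, rose. It had 229, 237 and 252 CPM in shCtrl and 335, 336 and 352 CPM in shRBM39, so that each knockdown library was above each control library. The log2 fold change of CTNNB1 was 0.51 (SE 0.04, edgeR adjusted p 2.05e-13), an increase of 42.5%. Its co-activators were split. BCL9, which links β-catenin to Pygopus, had 23.9, 25.6 and 24.6 CPM against 31.6, 29.9 and 29.1 CPM, a log2 fold change of 0.29 (SE 0.06, edgeR adjusted p 6.83e-05). BCL9 was not called on log2(RPKM + 1) and log2(RPKM + 0.1), at 0.14 and 0.16. Its paralog BCL9L, expressed at 26.5 RPKM in shCtrl against 4.01 RPKM for BCL9, had 263, 268 and 267 CPM against 220, 207 and 191 CPM, a log2 fold change of -0.37 (SE 0.04, edgeR adjusted p 1.49e-09). BCL9L shares 37.5% of its exon bases with CXCR5 on the opposite strand, which had 8.67 to 13.4 CPM and was also lower (log2 fold change -0.48). The fall of BCL9L was smaller with the GC and length correction, at -0.22. PYGO2, a PHD finger protein that reads histone marks, had 35.3, 34.2 and 31.4 CPM against 30.8, 29.0 and 29.2 CPM, a log2 fold change of -0.18 (SE 0.06, edgeR adjusted p 0.00642). PYGO2 lost its call without shCtrl replicate 1, at -0.14. It shares 9.2% of its exon bases with SHC1 on the same strand, so some of its reads are uncertain. SHC1 had more counts (mean 1282, against 624 for PYGO2) and was not called (log2 fold change -0.007).

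TCF/LEF factors bring β-catenin to DNA. TCF7L2, the main TCF of the intestinal epithelium, had 75.8, 76.6 and 78.1 CPM in shCtrl and 54.1, 54.3 and 55.1 CPM in shRBM39. The spread within each group was small beside this gap, and the log2 fold change was -0.50 (SE 0.04, edgeR adjusted p 5.33e-12). LEF1 had 37, 51 and 21 counts in shCtrl and 64, 63 and 63 counts in shRBM39, or 1.76 ± 0.688 CPM and 3.39 ± 0.231 CPM (SD, n = 3). All 3 knockdown values were above the control values, with a log2 fold change of 0.94 (SE 0.20, edgeR adjusted p 0.000133). LEF1 shares 5.2% of its exon bases with the antisense gene LEF1-AS1, which was also higher (log2 fold change 1.72, edgeR adjusted p 6.99e-05). TCF7 had 64.4, 66.8 and 66.3 CPM against 64.0, 63.0 and 58 CPM and was not called, at -0.09 (95% interval -0.187 to -0.0011, edgeR adjusted p 0.076). TCF7 was called as lower with upper quartiles (-0.13) and library totals (-0.22) and on log2(RPKM + 1) and log2(RPKM + 0.1) (-0.19 and -0.21). TCF7L1 was not called, at 0.06 (95% interval -0.16 to 0.29). The summed TCF/LEF level was 20.9 ± 0.436 RPKM in shCtrl and 16.0 ± 0.159 RPKM in shRBM39 (SD, n = 3). TCF7L2 made up 56.8% ± 0.314 of that sum in shCtrl and 48.3% ± 0.703 in shRBM39, TCF7 32.5% ± 0.335 and 36.6% ± 2.00, and LEF1 1.63% ± 0.643 and 3.78% ± 0.216 (SD, n = 3).

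**Figure D3:**
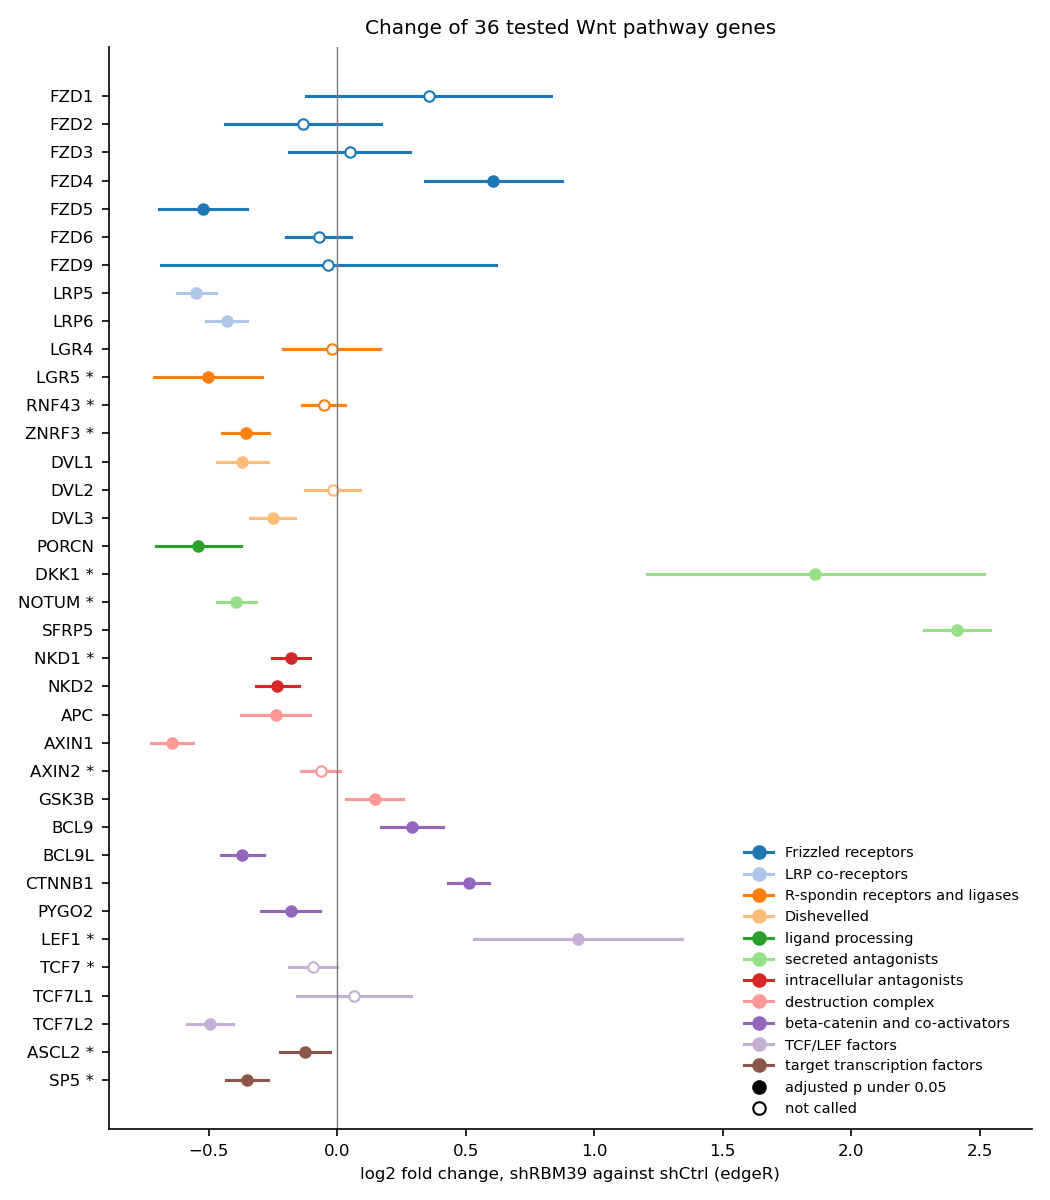
Log2 fold change of shRBM39 against shCtrl with its 95% interval for the 36 tested genes, coloured by role, with filled points for an adjusted p under 0.05 and a star for targets of the pathway. Most called genes lay between -0.64 and 0.61, and LEF1, DKK1 and SFRP5 lie furthest to the right.

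Then the target genes were compared as a group. Of 11 genes known as β-catenin targets in the intestine or colon cancer, which overlap the roles above (AXIN2, LGR5, RNF43, ZNRF3, NKD1, NOTUM, SP5, ASCL2, LEF1, TCF7 and DKK1), 8 were called, 6 lower and 2 higher, with a median log2 fold change of -0.13. These were 72.7% of the targets, against 59.1% of all tested genes, of which 29.2% were higher and 29.9% lower with a median of -0.01. SP5 (chromosome 2, 170715351 to 170718078), a zinc finger repressor among the most direct targets, had 150, 146 and 138 CPM in shCtrl and 113, 112 and 115 CPM in shRBM39, a log2 fold change of -0.35 (SE 0.04, edgeR adjusted p 2.39e-09). ASCL2, a transcription factor of crypt stem cells, had 49.5, 54.2 and 51.3 CPM against 48.4, 48.5 and 45.3 CPM. Its log2 fold change of -0.13 (SE 0.05, edgeR adjusted p 0.0269) lost its call in 6 of 17 alternatives, among them the fits without shCtrl replicate 2 (-0.09) or without shRBM39 replicate 3 (-0.09), DESeq2 (DESeq2 adjusted p 0.119) and no filter on low counts (edgeR adjusted p 0.0715). The 2 targets that were higher, LEF1 and DKK1, had the lowest shCtrl levels of the 11, at 0.342 and 0.176 RPKM. With at least 10 counts required in every library, DKK1 was not tested, and 1 of 10 targets was higher and 6 lower. The 6 lower ones, LGR5, ZNRF3, NKD1, NOTUM, SP5 and ASCL2, had log2 fold changes between -0.50 and -0.13. The number called lower was 9 with scaling by library totals and 5 with the GC and length correction, with 2 higher in both.

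The promoters of the members were then searched for TCF/LEF motifs. RefSeq windows (GRCh38.p14) of 250 bases before the start were found for 27 of the 40 genes, in 33 windows. The motif was CTTTG followed by AT, TT, AA or TA, and a match on either strand stood in 4 of the 33 windows (12.1%), against 12% of 35116 windows of all genes. The 4 windows belonged to SP5, DKK1, TCF7 and TCF7L2. The 2 windows with more than 1 match, those of SP5, which fell, and DKK1, which rose, are shown with the matches in capitals. None of these matches overlap. The SP5 window is chr2:170715087-170715336 and the DKK1 window chr10:52314031-52314280, both on the plus strand.
SP5: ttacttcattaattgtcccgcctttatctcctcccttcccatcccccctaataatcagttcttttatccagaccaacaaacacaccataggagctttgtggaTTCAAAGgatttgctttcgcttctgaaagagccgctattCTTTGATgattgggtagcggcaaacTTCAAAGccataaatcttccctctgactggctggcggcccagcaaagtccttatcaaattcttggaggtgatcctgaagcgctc
DKK1: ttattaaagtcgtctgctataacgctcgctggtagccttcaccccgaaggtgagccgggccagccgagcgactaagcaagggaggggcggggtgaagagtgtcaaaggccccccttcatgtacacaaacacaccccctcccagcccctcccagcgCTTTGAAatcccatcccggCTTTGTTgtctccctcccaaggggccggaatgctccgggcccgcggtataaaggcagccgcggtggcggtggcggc
In SP5 the matches start 148, 109 and 84 bases before the gene's start, the outer ones on the minus strand, and in DKK1 95 and 76 bases before it, on the plus strand. A match describes these letters and is no evidence of binding.

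Alternative splicing was also read for the 40 genes. The authors' table of rMATS records lists 1582 events that passed their thresholds, in 2 groups called group 1 and group 2 and not tied to shCtrl or shRBM39, and each record shows a difference by selection. Of the 40 genes, 2 had a record. The record of AXIN1, the gene with the largest fall, is a skipped exon, exon 9 of the 11 of the canonical transcript (chr16:291190-291297, minus strand, GRCh38), which is 108 bases long, or 36 codons, and coding throughout. The exon was included at levels of 0.273, 0.241 and 0.312 in group 1, against 0.361, 0.377 and 0.392 in group 2. The means were 0.275 ± 0.0356 and 0.377 ± 0.0155 (SD, n = 3) and the levels did not overlap. Between 64 and 76 event reads lay behind each level in group 1 and between 112 and 137 in group 2. The study lists this AXIN1 exon among the skipped exons it attributes to both RBM39 and MORC2, another protein it examined. The record of NKD2 names exons 3 and 4 of the 10 of its canonical transcript (chr5:1009481-1009560 and chr5:1032152-1032212, plus strand), of 80 and 61 bases, as mutually exclusive. Both exons are coding, and both are in the canonical transcript, which a record of mutually exclusive exons does not cover. The NKD2 levels of 0.453, 0.619 and 0.447 in group 1 stood against 0.645, 0.654 and 0.722 in group 2, from 34 to 54 reads each. The means were 0.506 ± 0.0976 and 0.674 ± 0.0421 (SD, n = 3), so the spread in group 1 was wide. Which of the 2 exons the level counts was not determined here. The exons, which show what the records add or leave out, were read from the GRCh38 genome on the strand of each gene, with the exon in capitals and 20 intron bases on each side.
AXIN1 exon 9: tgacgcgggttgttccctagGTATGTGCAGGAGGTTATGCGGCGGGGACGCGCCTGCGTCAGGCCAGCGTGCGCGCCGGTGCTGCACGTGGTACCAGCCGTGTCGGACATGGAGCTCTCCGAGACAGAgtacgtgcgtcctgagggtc
NKD2 exon 3: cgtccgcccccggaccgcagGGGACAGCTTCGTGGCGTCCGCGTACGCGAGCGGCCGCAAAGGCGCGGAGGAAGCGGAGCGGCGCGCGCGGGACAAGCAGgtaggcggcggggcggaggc
NKD2 exon 4: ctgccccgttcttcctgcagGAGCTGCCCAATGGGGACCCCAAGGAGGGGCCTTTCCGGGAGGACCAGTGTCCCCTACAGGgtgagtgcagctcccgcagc
Each of the 3 exons is preceded by ag and followed by gt. No record was listed for the other 38 genes, among them TCF7L2, TCF7 and LEF1, and events below the authors' thresholds were not analysed here.

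Other genes of the pathway were read from the same fit. Of 80 such genes with a row in the table, 58 were tested and 42 (72.4%) were called, 16 higher and 26 lower, with a median log2 fold change of -0.11. Over all tested genes 59.1% were called, 29.2% higher and 29.9% lower, and the median was -0.01, which is the background for each list that follows. With scaling by library totals, 10 of the 58 were called higher and 34 lower.

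Ligands were scarce. Of 19 Wnt genes, 10 were tested, 3 higher and 2 lower. WNT11, a ligand used mostly in β-catenin-independent signalling, went from 10.2, 11.3 and 11.8 CPM to 19.3, 17.6 and 19.2 CPM, a log2 fold change of 0.76 (edgeR adjusted p 2.73e-10). WNT2B dropped from 3.47, 4.33 and 4.23 CPM to 1.33, 1.34 and 1.19 CPM, a log2 fold change of -1.64 (edgeR adjusted p 1.49e-09). WNT7B had 1.27 to 1.64 CPM in shCtrl and 1.89 to 2.53 CPM in shRBM39, and its call was lost without shCtrl replicate 2 (0.53) or shRBM39 replicate 3 (0.48). WNT5B, with 8 to 15 counts in shCtrl and 24 or 25 in shRBM39, was also higher, and WNT6 was lower by -0.38 (edgeR adjusted p 0.00909), a call lost without shCtrl replicate 2 (-0.25) or shRBM39 replicate 2 (-0.30). WNT5B passed the filter on low counts through its shRBM39 libraries. None of the 4 R-spondin genes passed the filter, with at most 2 counts in a library.

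Of 6 other receptor and ligand transport genes, 3 were higher and 2 lower. ROR1 and ROR2, receptor tyrosine kinases of β-catenin-independent Wnt signalling, rose from low levels. ROR2 had 18, 16 and 5 counts in shCtrl and 56, 48 and 53 in shRBM39, a log2 fold change of 2.13 (SE 0.26, edgeR adjusted p 8.13e-09). ROR1 had 1.49, 1.79 and 1.57 CPM against 4.03, 4.24 and 3.36 CPM, a log2 fold change of 1.25 (edgeR adjusted p 1.56e-07). WLS, which escorts Wnt ligands to the cell surface, rose by 0.82 (edgeR adjusted p 2.2e-05). FZD10, the Frizzled gene outside the list of 40, had 19.0, 18.6 and 16.4 CPM against 10.8, 10.3 and 8.31 CPM, a log2 fold change of -0.88 (edgeR adjusted p 1.54e-10). At 5.72 RPKM in shCtrl, FZD10 stood between FZD6 and FZD5. It had 5.97, 5.95 and 5.24 RPKM in shCtrl and 3.16, 3.01 and 2.42 RPKM in shRBM39. With FZD10 added, the Frizzled sum given above was lower in every shRBM39 library than in any shCtrl library. LGR6, the remaining R-spondin receptor, was lower by -0.34.

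Of 12 other antagonists, 6 were tested and 6 called, against 59.1% of all tested genes. DKK3 and DACT2 were lower, by -1.16 and -1.12 (edgeR adjusted p 3.22e-06 and 1.1e-06), as were APCDD1 and KREMEN1, by -0.41 and -0.26. FRZB, with 1 to 4 counts in shCtrl and 11 or 12 in shRBM39, and KREMEN2, by 0.25, were higher. FRZB passed the filter on low counts only through its shRBM39 libraries. KREMEN2 was not called with library totals (0.12) or without shCtrl replicate 1 (0.16), shRBM39 replicate 1 (0.24) or shRBM39 replicate 3 (0.23). Of 15 other genes of the destruction complex and of β-catenin turnover, 2 were higher and 8 lower. The 2 higher were PPP2R1A (0.24) and AMER1 (0.18), and AMER1 was not called with library totals (0.0582) or without shCtrl replicate 1 (0.17), shCtrl replicate 3 (0.15), shRBM39 replicate 1 (0.12) or shRBM39 replicate 2 (0.17). FBXW11 and BTRC, the ubiquitin ligase subunits that recognise phosphorylated β-catenin, fell by 0.61 and 0.48 on the log2 scale (edgeR adjusted p 6.84e-09 and 1.14e-07). APC2, a paralog of APC, had a log2 fold change of -0.79 (edgeR adjusted p 5.14e-06). Among 10 nuclear partners tested, 2 were higher and 5 lower. TLE2, 1 of the 5, had 11 or 12 counts in shCtrl and 2 to 4 in shRBM39. The 2 higher were CHD8 (0.23) and TLE3 (0.11), neither of them called on log2(RPKM + 1), and the sign of TLE3 turned with library totals (-0.0133). TLE3 was also not called without shRBM39 replicate 2 (0.0923). CTNNBIP1, which blocks β-catenin from binding TCF, had 47.8, 48.0 and 45.6 CPM against 30.3, 27.7 and 30.0 CPM, a log2 fold change of -0.68 (edgeR adjusted p 2.03e-13). The Groucho co-repressor gene TLE1 fell by 1.25 (edgeR adjusted p 1.98e-05).

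Of 11 other targets tested, 4 were higher and 5 lower. MYC, the growth regulator, had 340, 363 and 329 CPM in shCtrl and 181, 176 and 172 CPM in shRBM39, a log2 fold change of -0.96 (SE 0.04, edgeR adjusted p 1.46e-20). SOX9, a crypt transcription factor, had 266, 286 and 257 CPM against 156, 161 and 156 CPM, a log2 fold change of -0.77 (edgeR adjusted p 6.85e-18). TDGF1, ETS2 and TNFRSF19 were lower by -0.84, -0.45 and -0.55. CCND1, the cyclin D1 gene, was higher by 0.17 (edgeR adjusted p 0.000241), and EPHB3 and FERMT1 by 0.19 and 0.13, but none of these 3 was called with library totals, at 0.045, 0.0686 and 0.00778. FERMT1 was also not called without shCtrl replicate 2 (0.13), shCtrl replicate 3 (0.12), shRBM39 replicate 1 (0.0993) or shRBM39 replicate 2 (0.13). CD44, an adhesion receptor, rose by 0.85 from 2.03 to 2.85 CPM in shCtrl to 4.01 to 4.85 CPM in shRBM39 (edgeR adjusted p 1.76e-05). The targets outside the list of 40 thus also moved in both directions.

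**Figure D4:**
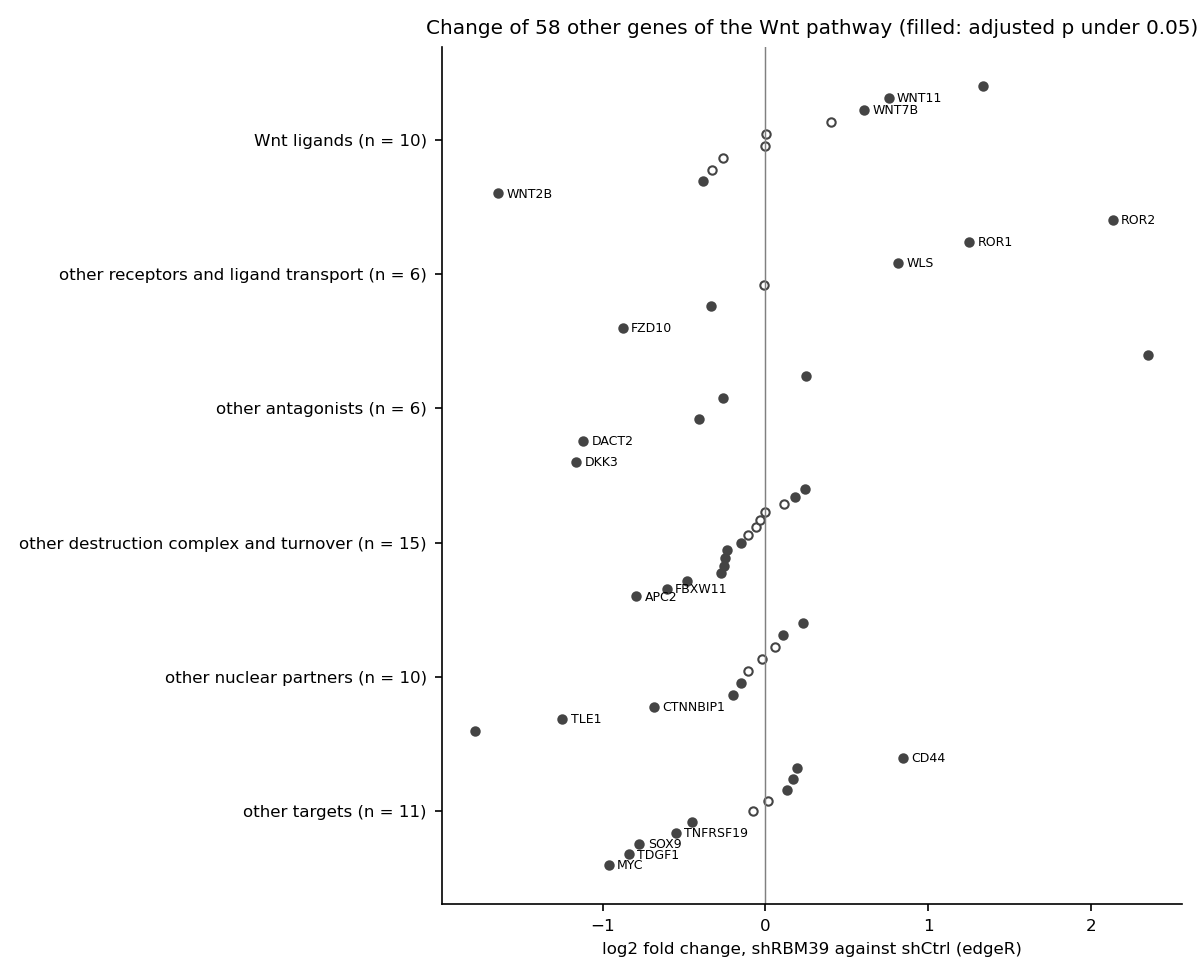
Log2 fold change of shRBM39 against shCtrl for 58 other genes of the Wnt pathway, by list, with filled points for an adjusted p under 0.05 and names for called genes of 1 CPM or more on average with a log2 fold change of at least 0.5 in size. Each of the 6 lists holds points on both sides of 0, with WNT2B furthest down among the named genes and ROR2 furthest up.

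**Figure D5:**
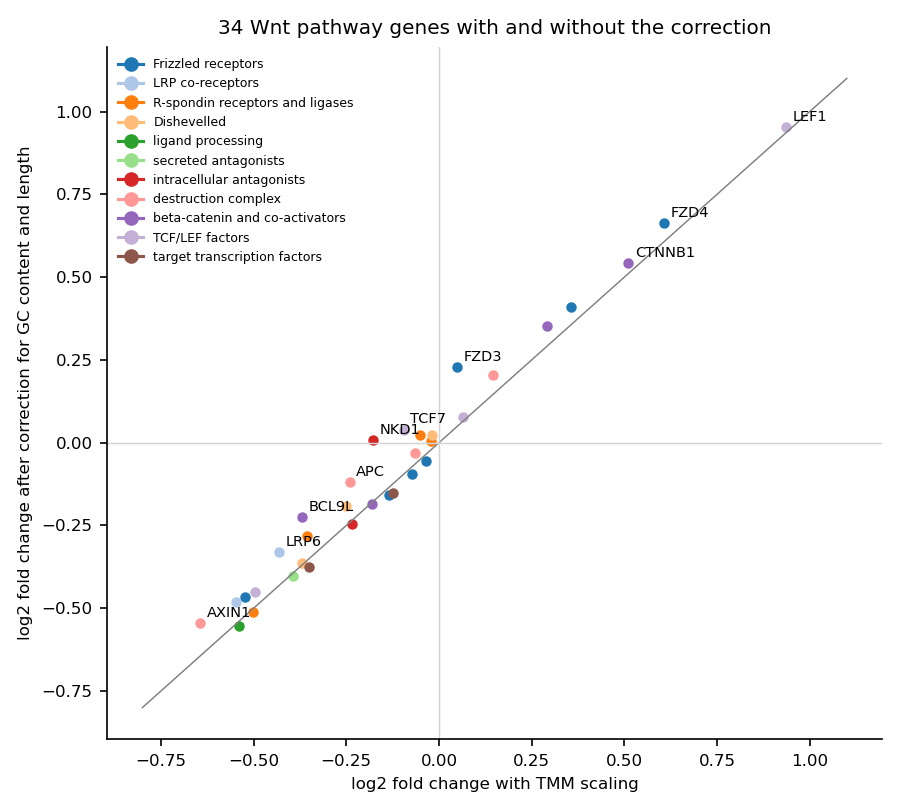
Log2 fold change of 34 of the tested genes (SFRP5 and DKK1 lie outside the axes) with TMM scaling and with the GC and length correction. Most points lie near the diagonal. Larger moves included NKD1, to 0.00763, TCF7, from -0.09 to 0.0394, and APC and BCL9L, which moved closer to 0.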

How the data were processed

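mRNA libraries were made from SW480 cells with a stranded kit, 3 per group, and the titles gave the group and replicate number of each. NC columns were assigned to shCtrl, since no other control group exists here. The deposited table holds unnormalised counts for each symbol and, per the file headers, RPKM values, and recomputing these from counts gave relative differences of at most 5.13e-15. The submitters' processing notes name Trimmomatic 0.36, STAR 2.5.3a, featureCounts, Subread 1.5.1, edgeR 3.12.1 and GRCh38. The methods name a protocol with unique identifiers, and how these, multi-mapped reads and strand were treated in counting is not given in the sources used here, and it affects paralogs and overlapping genes most. Of the members' listed exons, 87.8% were identical to a GENCODE v44 exon. The deposited splicing records hold reads and inclusion levels from rMATS, and also columns of the authors' own comparisons (p-values, false discovery rates and differences), which were not used.

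In R 4.3.3, edgeR 4.0.16 was run with filterByExpr, TMM scaling and a quasi-likelihood model of the group, and p-values of the 18243 genes that passed were adjusted by Benjamini-Hochberg, with a threshold of 0.05. DKK1, WNT5B, FRZB, ROR2, KRT20 and LEF1-AS1 had fewer than 10 counts in at least 1 shCtrl library and at least 10 in every shRBM39 library. They passed the filter through the group in which they were higher, which favours a call. TLE2 passed it through shCtrl, where it was higher. TMM factors enter the CPM values. RPKM values are as deposited, without these factors, and serve to compare levels between genes and to describe levels and sums in each group. The factors were 1.03 to 1.05 in shCtrl and 0.955 to 0.960 in shRBM39, so a fall in shRBM39 comes out larger in RPKM than in CPM. Standard errors and intervals come from the F statistic. The members and lists were chosen with earlier results of these data known. Named genes were all 40 members, RBM39, markers checked, and other pathway genes that were called, averaged 1 CPM or more and had a log2 fold change of at least 0.5 in size. WNT5B, WNT6, LGR6, FRZB, KREMEN1, KREMEN2, APCDD1, BTRC, CHD8, TLE2, TLE3, PPP2R1A, AMER1, CCND1, EPHB3, ETS2, FERMT1 and the overlapping genes fall outside that rule and were named after their values were seen. Alternatives were DESeq2 1.42.0, limma 3.58.1 on log2(RPKM + 1) and log2(RPKM + 0.1), other scalings and filters, a replicate block, each library left out, a threshold of 0.01 and edgeR's test for log2 changes beyond 0.5. The GC and length correction was an addition made once results had been seen. Within each group, replicate pairs differed by more than sampling noise, the chi-square divided by its degrees of freedom being 2.11 to 4.21. Floors and intervals of counts cover counting error only.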

Additional observations from a re-analysis of the deposited data

How the results depend on the processing

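Of the 25 called Wnt pathway genes, 19 kept their call and direction in every alternative other than the test for log2 changes beyond 0.5 (DKK1 did not pass the filter of 10 counts in every library). Under that test 4 genes were called in place of 25, AXIN1 lower (1 in place of 18) and SFRP5, DKK1 and LEF1 higher (3 in place of 7), 18 in place of 42 other pathway genes (7 higher and 11 lower), and 2232 in place of 10790 genes overall. Scaling by library totals moved the median log2 fold change of all genes from -0.01 to -0.14 and the share of calls that were higher from 49.4% to 33.9%. That share was 33.6% on both log2(RPKM + 1) and log2(RPKM + 0.1), and 10 other pathway genes were higher with library totals and 9 and 8 on those scales, in place of 16. With 1 library left out, 23 to 25 pathway genes were called (6 to 7 higher, 17 to 18 lower), 39 to 41 other pathway genes (13 to 14 and 25 to 27) and 10138 to 10263 genes overall.

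The GC and length correction turned the signs of NKD1 (0.00763), TCF7 (0.0394), LGR4 (0.00455), RNF43 (0.0238) and DVL2 (0.0241). For TCF7L1 and FZD3, neither of which was called, the sign turned with library totals (-0.0598 and -0.0751), on log2(RPKM + 1) (-0.0429 and -0.0213) and on log2(RPKM + 0.1) (-0.0661 and -0.0585). With 1 library left out, log2 fold changes that took both signs ran from -0.0509 to 0.20 for TCF7L1, from -0.0589 to 0.0473 for LGR4, from -0.23 to 0.0223 for FZD2, from -0.53 to 0.20 for FZD9 and from -0.0595 to 0.0322 for DVL2, none of them called. On log2(RPKM + 1), LEF1, DKK1 and FZD4 had smaller log2 fold changes (0.26, 0.44 and 0.19). Their group means, 0.176 to 0.788 RPKM, lay below the 1 that this scale adds, which shrinks differences between low values. The summed levels with TMM factors were 67.3 and 46.9 for LRP5 and LRP6, 43.0 and 36.2 for Dishevelled and 20.1 and 16.8 for TCF/LEF, in shCtrl and shRBM39. For FZD1 to FZD9 they were 13.5 and 12.7. The changes with TMM factors and in deposited RPKM were -30.3% and -36.0% for LRP and -15.8% and -22.7% for Dishevelled. They were -16.6% and -23.4% for TCF/LEF and -5.9% and -13.7% for FZD1 to FZD9. Both splicing records had at least 20 reads in every library, and 0 had a difference of at least 0.2. The alternative of a false discovery rate for these records was not run, because the authors' test columns were not used. The replicate numbers did not pair the libraries, with correlations of same-numbered deviations from -0.0282 to 0.00612, and the fit with the replicate block called 25 pathway genes, 43 other pathway genes and 10810 genes overall. Depth limits DKK1, LEF1, FZD1, FZD7, FZD8, FZD9 and WIF1, which had few counts.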
